A study of Trametes versicolor with 17 samples.

Results

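The response of the white-rot fungus Trametes versicolor to the aqueous phase of liquefied food waste (FW) was read from 6 of the 17 mRNA libraries of the series. These were 3 libraries of mycelial pellets exposed for 72 h to 5% FW aqueous phase and 3 libraries of control pellets that received none, chosen by their treatment labels. All 14296 gene models were taken in, of which 10838 had enough reads to be tested. Every library carries the genotype label ASM 8036, and the pellets were shaken at 135 rpm and 28 °C in medium with 2% malt extract, to which the phase was added for the exposed ones. In the same batch, labelled main, pellets were exposed for 3 days to 5% aqueous phase of 2 other feedstocks, salad dressing (SD) and algal biomass (AB), with 3 libraries each. SD means this feedstock throughout, and values after ± are standard deviations over 3 libraries. Levels are in CPM, read counts scaled to a common library size with TMM factors. The titles call the libraries biological replicates. Whether each came from its own culture vessel is not stated, so the p-values measure the spread between these libraries, which may in part be technical.

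Hydrothermal liquefaction converts wet feedstocks to biocrude in hot compressed water. Its aqueous by-product carries organic acids, phenols and nitrogen compounds that inhibit many microbes. White-rot fungi are known for breaking down lignin and other aromatic compounds with secreted peroxidases and laccases, and with enzymes inside the cell. The series title asks which genes answer to this stress broadly. Most gene models have no symbol in the reference table used here, so they are described by locus tag, position, level and behaviour, and no role is given to them. Coordinates are those of the deposited table. As the pellets were sampled in bulk, fewer cells of a type and less RNA per cell cannot be told apart.

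FW pellets differed from control pellets in a large part of the transcriptome. In all 4963 of the 10838 tested genes were called at an adjusted p of 0.05 (45.8%), 2432 of them higher under FW (22.4%) and 2531 lower (23.4%). Every adjusted p given here comes from edgeR's quasi-likelihood test with Benjamini-Hochberg adjustment over all tested genes. The 3 FW and the 3 control libraries did not overlap in 4712 of the called genes (43.5% of those tested), and 251 called genes did overlap.

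Most of the called changes were modest, and the strong ones leaned towards higher levels. The log2 fold change of FW over control had a median of -0.01 over the tested genes, with 25th and 75th percentiles of -0.49 and 0.49. Of the called genes 2220 changed at least 2-fold (20.5% of those tested), 1220 of them higher (11.3%) and 1000 lower (9.23%). At 4-fold or more, 394 genes were higher and 192 lower. At 16-fold or more the counts were 59 and 16.

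**Figure D1:**
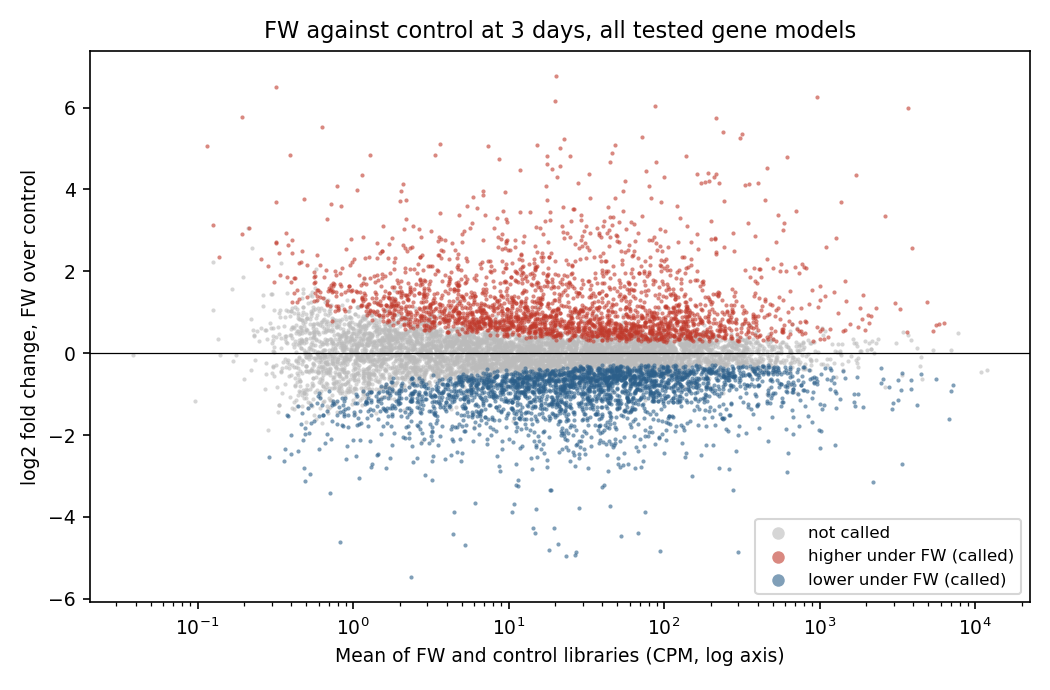
Each point is 1 of the 10838 tested gene models, placed by its mean over the FW and control libraries (CPM, log axis) and its log2 fold change of FW over control. Red points were called higher under FW (2432), blue points were called lower (2531) and grey points were not called (5875). The points above 4 on the log2 scale outnumber those below -4, with 59 called genes against 16.

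The called genes held much of the mRNA. In the FW libraries the genes called higher took 34.3%, 35% and 34.5% of all reads, against 15%, 17.2% and 15.8% in the control libraries. The genes called lower took 22.1%, 21.2% and 21.7% of the reads under FW and 41.4%, 38.1% and 40.3% in control. These shares describe genes that were chosen by this same contrast. Genes that were not called took 43.6% to 43.8% of the reads under FW and 43.6% to 44.7% in control.

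The libraries held 16923906 to 18770043 counts under FW and 15459249 to 18235907 in control, where 3 counts correspond to at most 0.18 CPM under FW and 0.199 CPM in control. The median absolute log2 difference between a pair of libraries was 0.213 to 0.33 within FW and 0.213 to 0.296 within control. Between the groups it was 0.476 to 0.51 for control replicate 2 and 0.514 to 0.6 for the other 2 controls. Control replicate 2 was also the control nearest to FW in 1171 of the 2220 genes called with at least a 2-fold change (52.7%), against 458 for replicate 1 and 591 for replicate 3. Without it 4869 genes were called, and 2381 of these changed at least 2-fold.

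The largest rises by fold took in genes that were nearly silent in control as well as genes that became abundant. MnP13 (TRAVEDRAFT_51442, scaffold 10, 2258153 to 2258981), a manganese peroxidase gene, stood at 49.3, 15.3 and 55.4 CPM under FW and at 0.22, 0.199 and 0.648 CPM in control. Its log2 fold change was 6.78 (SE 0.62, adjusted p = 3.22e-06), and 7.52 without control replicate 3. MnP13 was also higher under FW than under SD, by 3.67 (adjusted p = 1.98e-04), and than under AB, by 4.52 (adjusted p = 1.24e-05). Manganese peroxidases are secreted enzymes that oxidise manganese in the breakdown of lignin, and MnP13 was the sole gene with a symbol among the 8 largest rises.

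TRAVEDRAFT_128509 (scaffold 8, 422658 to 424546, 9 exons) reached 2348, 1703 and 1680 CPM under FW, against 16.9, 39.8 and 18.7 CPM in control. Its log2 fold change was 6.25 (SE 0.59, adjusted p = 4.62e-06), and the lowest FW library lay far above the highest control. TRAVEDRAFT_26376 (scaffold 2, 1315354 to 1316541) had a like profile, with 728, 598 and 544 CPM under FW against 8.59, 28.5 and 8.96 CPM in control (log2 fold change 5.35, SE 0.54, adjusted p = 7.88e-06). In both genes control replicate 2 was the highest control library, and SD replicate 2 was the highest SD library (174 and 46.1 CPM). Without it the value of TRAVEDRAFT_26376 was 6.15.

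Both genes also stood apart from the other aqueous phases. For MnP13 and other genes chosen by their FW change, comparisons with SD and AB reuse the FW libraries of that choice. TRAVEDRAFT_128509 averaged 1910 ± 379 CPM under FW, against 89.4 ± 73.9 CPM under SD and 25.7 ± 9.53 CPM under AB (n = 3 each). It was higher under FW by a log2 fold change of 4.42 against SD (adjusted p = 1.39e-04) and of 6.22 against AB (adjusted p = 2.72e-06). TRAVEDRAFT_26376 averaged 623 ± 94.5 CPM under FW, 26.1 ± 17.5 under SD and 25.7 ± 5.77 under AB, and was higher under FW by 4.58 (adjusted p = 8.07e-05) and 4.6 (adjusted p = 1.39e-05). Over all tested genes 25.4% were called between FW and SD (13.3% higher under FW and 12.1% lower) and 42.1% between FW and AB (21.9% higher and 20.2% lower).

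TRAVEDRAFT_26150 (scaffold 1, 4867401 to 4869360, 7 exons) gained the most reads of all genes under FW. It had 7610, 7896 and 6482 CPM under FW against 55.3, 226 and 66.7 CPM in control, with a log2 fold change at 5.98 (SE 0.65, adjusted p = 1.39e-05). Per length this was 4488 CPM per kb of exon under FW and 71.1 in control. Its neighbour at 14.8 kb, TRAVEDRAFT_108704 (4852187 to 4852643), had 435, 467 and 376 CPM under FW and 3.19, 16.5 and 4.24 CPM in control (log2 fold change 5.75, SE 0.67, adjusted p = 2.38e-05). In both genes control replicate 2 was above the other 2 controls, and SD replicate 2 above the other SD libraries (1312 and 75 CPM). Without it the log2 fold changes were 6.91 for TRAVEDRAFT_26150 and 6.84 for TRAVEDRAFT_108704.

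The levels of this pair of neighbours under the other phases differed from those of the genes described before. TRAVEDRAFT_26150 had 301, 1312 and 428 CPM under SD and 10904, 10421 and 11197 CPM under AB, and TRAVEDRAFT_108704 averaged 38.5 ± 32.1 and 703 ± 33.8 CPM. Both were higher under FW than under SD, by log2 fold changes of 3.43 (adjusted p = 0.00117) and 3.47 (adjusted p = 0.00131). Against AB the differences of -0.56 (SE 0.53, adjusted p = 0.416) and -0.72 (SE 0.54, adjusted p = 0.306) were not called, although the libraries did not overlap. For TRAVEDRAFT_26150 the FW libraries lay at 6482 to 7896 CPM and the AB libraries at 10421 to 11197 CPM, and for TRAVEDRAFT_108704 they lay at 376 to 467 and at 680 to 742 CPM. Of the 5 models between the neighbours 4 were tested, and 1 rose, against 22.4% higher over all tested genes. This region was picked for the genes at its ends.

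TRAVEDRAFT_160456 (scaffold 2, 506009 to 507088) rose to 163, 157 and 199 CPM under FW, against 1.98, 3.97 and 2 CPM in control (log2 fold change 6.04, SE 0.36, adjusted p = 1.88e-07). It averaged 27.8 ± 13.2 CPM under SD and 214 ± 8.2 under AB, and was called between FW and SD (2.63, adjusted p = 7.19e-05) but not between FW and AB (-0.31, SE 0.27, adjusted p = 0.391). Its AB libraries, at 206, 223 and 213 CPM, nonetheless all lay above the FW libraries. For TRAVEDRAFT_173629 (scaffold 11, 2023319 to 2024995) the FW libraries had 716, 269 and 418 CPM, and the controls 10.1, 14.6 and 8.37 CPM (5.41, SE 0.38, adjusted p = 4.47e-07). TRAVEDRAFT_173629 had 10.7, 11.4 and 9.97 CPM under SD and 219, 119 and 167 CPM under AB. FW was higher than SD by 5.45 (adjusted p = 2.79e-06) and higher than AB by 1.47 (adjusted p = 0.00211).

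TRAVEDRAFT_60089 (scaffold 9, 2095074 to 2095973) had 30, 39.5 and 47.8 CPM under FW and was nearly silent in control, at 0.55, 0.86 and 0.236 CPM. Its log2 fold change of 6.16 had an SE of 0.33 (adjusted p = 1.78e-07). Of the 4 groups FW had the highest mean, with log2 fold changes of 0.96 over SD (adjusted p = 0.0106) and 1.89 over AB (adjusted p = 4.47e-05).

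**Figure D2:**
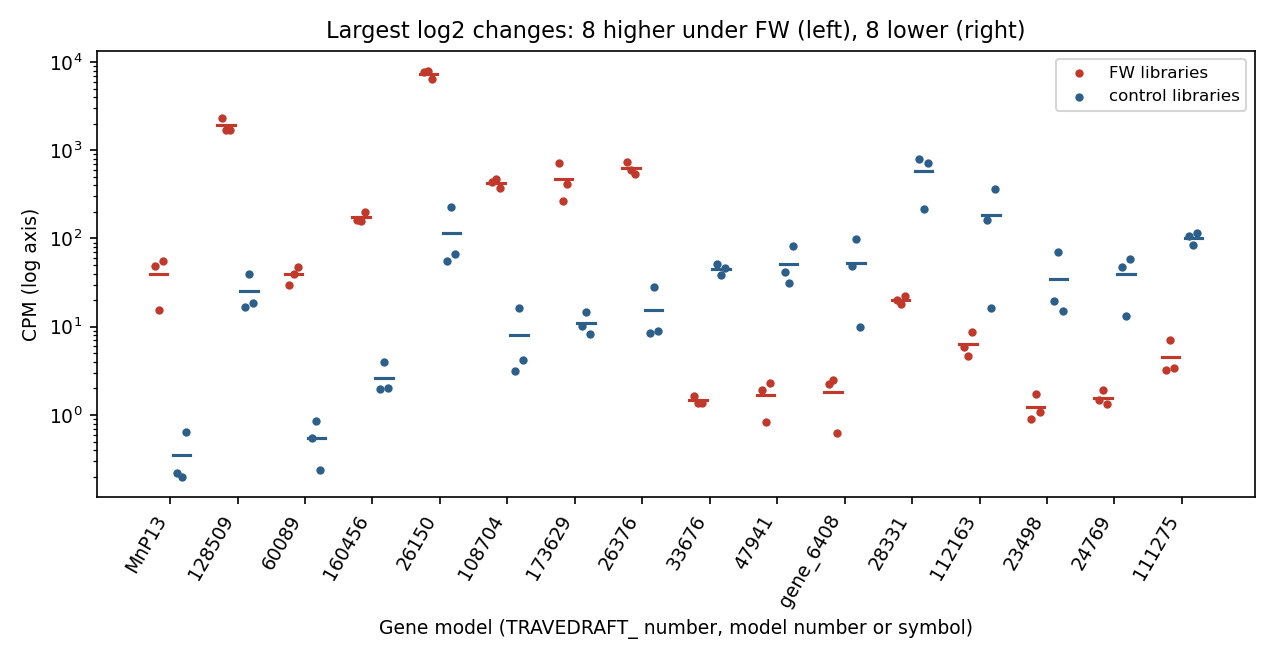
Points are single libraries and bars are group means (CPM, log axis) for the 8 largest rises on the left and the 8 largest falls on the right, FW in red and control in blue. The groups do not overlap in any of the 16 genes, a condition of their choice. The control points spread most for TRAVEDRAFT_112163, with 16.5 to 367 CPM.

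The largest falls left most of their genes at a few CPM. Their control means ran from 35.2 CPM (TRAVEDRAFT_23498) to 580 CPM (TRAVEDRAFT_28331, left at 20.1 CPM under FW). TRAVEDRAFT_33676 (scaffold 1, 3704440 to 3706138, 11 exons) had 1.64, 1.38 and 1.37 CPM under FW, against 51.7, 38.9 and 46.1 CPM in control (log2 fold change -4.95, SE 0.33, adjusted p = 3.66e-07). TRAVEDRAFT_111275 (scaffold 1, 239989 to 240342) had 3.22, 7.07 and 3.44 CPM under FW and 106, 84.3 and 115 CPM in control (-4.48, SE 0.31, adjusted p = 4.47e-07). In TRAVEDRAFT_111275 FW replicate 2 was above the other 2 FW libraries, and in both genes every FW library was far below every control.

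Other large falls had controls that spread widely. TRAVEDRAFT_28331 (scaffold 4, 2715782 to 2716904) had 19.9, 18.1 and 22.2 CPM under FW and 800, 218 and 723 CPM in control (log2 fold change -4.85, SE 0.44, adjusted p = 2.90e-06). TRAVEDRAFT_112163 (scaffold 1, 1588636 to 1590113) had 5.82, 4.61 and 8.71 CPM under FW and 163, 16.5 and 367 CPM in control (-4.83, SE 0.91, adjusted p = 8.98e-04). TRAVEDRAFT_24769 (scaffold 15, 601733 to 602951) had 1.47, 1.92 and 1.32 CPM under FW and 47.3, 13.3 and 58.6 CPM in control (-4.66, SE 0.56, adjusted p = 2.98e-05). In all 3 genes control replicate 2 was the lowest control and thus the nearest to FW. SD replicate 2 was likewise the lowest SD library in them, at 26.3, 9.11 and 1.89 CPM. What the libraries numbered 2 have in common was not tested. The value of TRAVEDRAFT_112163 was -3.82 without control replicate 3.

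In TRAVEDRAFT_23498 (scaffold 11, 2006419 to 2007730) and in the model gene_6408 (scaffold 6, 4570 to 8088), control replicate 2 was instead the highest control. SD replicate 2 was also the highest SD library in them, at 5.68 and 64.5 CPM. TRAVEDRAFT_23498 had 0.904, 1.74 and 1.09 CPM under FW against 19.6, 70.7 and 15.2 CPM in control (log2 fold change -4.82, SE 0.61, adjusted p = 4.30e-05). For gene_6408 the values were 2.26, 2.51 and 0.63 CPM under FW and 48.9, 99.1 and 10 CPM in control (-4.86, SE 1.19, adjusted p = 0.00488). The SE of gene_6408 was the widest of the 16. Without control replicate 2 the log2 fold changes were -3.81 for TRAVEDRAFT_23498 and -4.03 for gene_6408. TRAVEDRAFT_47941 (scaffold 6, 2125333 to 2125812), a model of 1 exon, had 1.92, 0.838 and 2.29 CPM under FW and 41.7, 31.4 and 82.9 CPM in control (-4.94, SE 0.48, adjusted p = 5.65e-06).

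Of the 8 falls, 6 were called lower under FW than under SD and 1 lower than under AB. Over all tested genes these shares were 12.1% and 20.2%. The comparisons of the falls use the FW libraries by which the genes were chosen, and the counts are a description. TRAVEDRAFT_33676 averaged 1.46 CPM under FW, 6.73 ± 3.57 under SD and 0.734 ± 0.098 under AB. It was lower under FW than under SD by a log2 fold change of -2.19 (adjusted p = 4.49e-04), and its difference from AB of 0.99 was not called (SE 0.40, adjusted p = 0.0647). The AB libraries of TRAVEDRAFT_33676, at 0.663 to 0.846 CPM, nonetheless lay below every FW library. TRAVEDRAFT_28331 averaged 20.1 ± 2.05 CPM under FW, 42.7 ± 15.7 under SD and 134 ± 7.2 under AB. It was lower under FW than under AB by -2.74 (adjusted p = 1.17e-04), and its difference from SD of -1.09 was not called (SE 0.38, adjusted p = 0.0525). The SD libraries of TRAVEDRAFT_28331, at 26.3 to 57.7 CPM, nonetheless lay above every FW library.

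TRAVEDRAFT_47941 and TRAVEDRAFT_111275 lay between the other phases. They were lower under FW than under SD by -3.50 (adjusted p = 2.66e-04) and -2.57 (adjusted p = 8.11e-05), and higher than under AB by 3.32 (adjusted p = 0.0045) and 2.07 (adjusted p = 5.19e-04). The values against SD were -3.71 for gene_6408 (adjusted p = 0.0329), -2.53 for TRAVEDRAFT_112163 (adjusted p = 0.0434) and -1.79 for TRAVEDRAFT_23498 (adjusted p = 0.0475). Against AB these 3 genes were not called, at 1.13 (SE 1.45, adjusted p = 0.565), 0.98 (SE 0.91, adjusted p = 0.41) and 0.50 (SE 0.74, adjusted p = 0.62). For TRAVEDRAFT_24769 neither difference was called, at -1.56 (SE 0.56, adjusted p = 0.0576) against SD and 1.25 (SE 0.71, adjusted p = 0.176) against AB. In TRAVEDRAFT_112163 and TRAVEDRAFT_24769 every FW library nonetheless lay above every AB library. The AB libraries had 1.93 to 3.93 and 0.441 to 0.965 CPM. In gene_6408 and TRAVEDRAFT_23498 the FW and AB libraries overlapped.

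**Figure D3:**
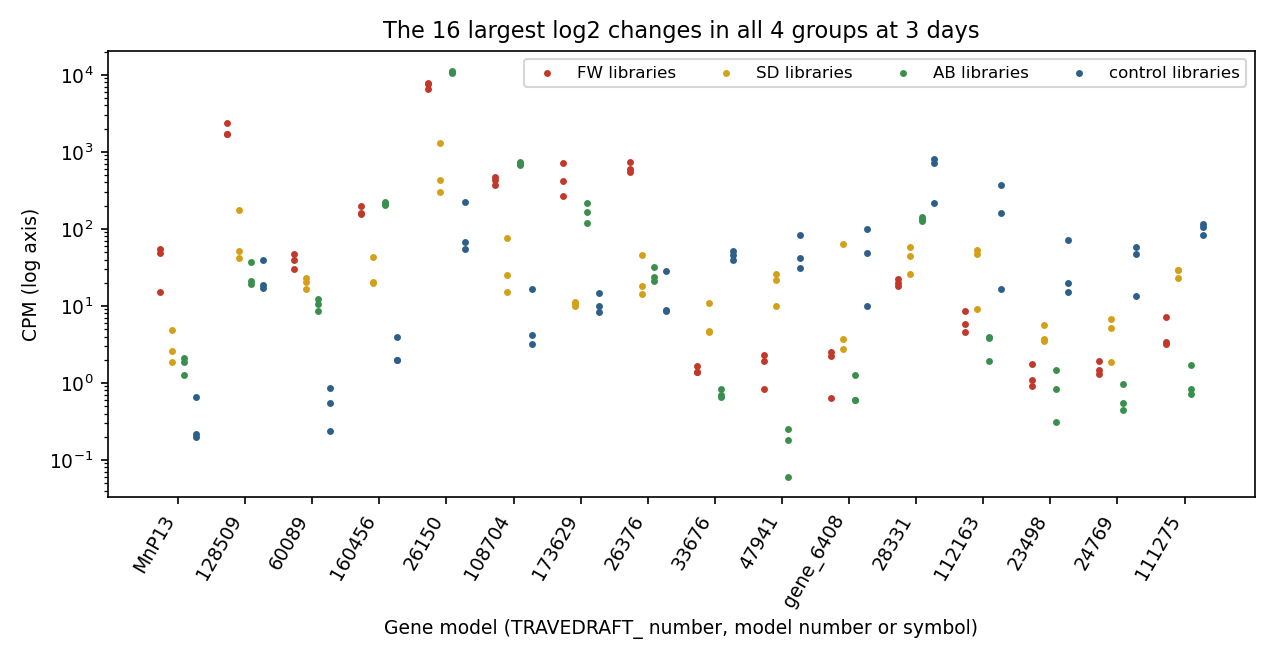
Points are single libraries (CPM, log axis) of the 16 genes with the largest log2 changes, in the order FW (red), SD (yellow), AB (green) and control (blue) for each gene. The AB libraries of TRAVEDRAFT_26150 lie at 10421 to 11197 CPM, beside 6482 to 7896 CPM under FW, whereas those of TRAVEDRAFT_128509 lie at 19.5 to 36.7 CPM, beside 1680 to 2348 CPM under FW.

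By reads gained, TRAVEDRAFT_26150 was followed by genes with smaller folds. TRAVEDRAFT_155039 (scaffold 12, 1160343 to 1165173, 19 exons) had 6885, 5688 and 7687 CPM under FW, against 911, 1155 and 1370 CPM in control. The rise was 2.56 on the log2 scale (SE 0.20, adjusted p = 8.98e-07), with 1783 CPM per kb under FW and 302 in control. Its mean was 1530 ± 322 CPM under SD and 4193 ± 370 under AB, and FW was higher than both, by 2.14 (adjusted p = 1.82e-05) and 0.69 (adjusted p = 0.00926).

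TRAVEDRAFT_69281 (scaffold 2, 2481320 to 2483808) had 4237, 5271 and 4919 CPM under FW and 321, 521 and 570 CPM in control (log2 fold change 3.35, SE 0.32, adjusted p = 5.36e-06). It also exceeded SD by 2.67 (adjusted p = 1.09e-04) and AB by 1.31 (adjusted p = 0.00353). At 1.19 kb from it lies TRAVEDRAFT_161318 (2479116 to 2480133), on the opposite strand. This neighbour was among the 5 most abundant genes of the control libraries per length, with 16679 CPM per kb under FW and 10088 in control. Its libraries had 8731, 8280 and 6656 CPM under FW against 3925, 5965 and 4425 CPM in control, a smaller rise of 0.73 (SE 0.17, adjusted p = 0.00346). The fold changes of the neighbours thus lay far apart although the models are adjacent.

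TRAVEDRAFT_136901 (scaffold 16, 60243 to 61263) had 5407, 6549 and 8607 CPM under FW and 2370, 3301 and 3024 CPM in control. Its log2 fold change was 1.24 (SE 0.22, adjusted p = 4.81e-04). Its level was 5400 ± 1374 CPM under SD and 5273 ± 679 CPM under AB, and the differences of FW from them were not called (0.34, SE 0.21, adjusted p = 0.253, and 0.38, SE 0.21, adjusted p = 0.171).

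The largest losses of reads fell on genes that stayed well expressed. TRAVEDRAFT_68340 (scaffold 1, 2552197 to 2554290) had 3198, 3236 and 3638 CPM under FW against 10269, 7693 and 12541 CPM in control (log2 fold change -1.60, SE 0.18, adjusted p = 1.64e-05). TRAVEDRAFT_32245 (scaffold 16, 126111 to 127991) had 4881, 4345 and 5213 CPM under FW and 8818, 7627 and 11009 CPM in control (-0.93, SE 0.15, adjusted p = 3.19e-04). TRAVEDRAFT_29347 (scaffold 7, 54818 to 56422) had 4998, 5228 and 5734 CPM under FW and 8444, 8992 and 9781 CPM in control (-0.77, SE 0.12, adjusted p = 1.97e-04). The lowest FW library of these 3 genes still had 3198 CPM. Against SD the log2 fold changes were -0.62 for TRAVEDRAFT_68340 (adjusted p = 0.0206), -0.21 for TRAVEDRAFT_32245 (adjusted p = 0.318) and -0.47 for TRAVEDRAFT_29347 (adjusted p = 0.0116). Against AB they were 1.94 (adjusted p = 2.25e-06), 0.54 (adjusted p = 0.012) and -0.01 (adjusted p = 0.966).

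The last pair of the 5 fell further. TRAVEDRAFT_65852 (scaffold 8, 2331745 to 2334257) had 1012, 659 and 1024 CPM under FW and 6537, 5688 and 5530 CPM in control (log2 fold change -2.72, SE 0.19, adjusted p = 4.47e-07). It was lower under FW than under SD by -1.92 (adjusted p = 2.79e-05), but higher than under AB by 6.55 (adjusted p = 6.93e-10), where it averaged 9.58 ± 0.862 CPM. TRAVEDRAFT_169699 (scaffold 7, 1770437 to 1772808) had 267, 799 and 269 CPM under FW and 3720, 3577 and 4606 CPM in control (-3.16, SE 0.35, adjusted p = 1.64e-05). FW replicate 2 stood above the other 2 FW libraries in this gene and still far below every control. Without it the log2 fold change was -3.84. TRAVEDRAFT_169699 was lower under FW than under SD by -2.27 (adjusted p = 5.48e-04) and higher than under AB by 1.77 (adjusted p = 9.28e-04).

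**Figure D4:**
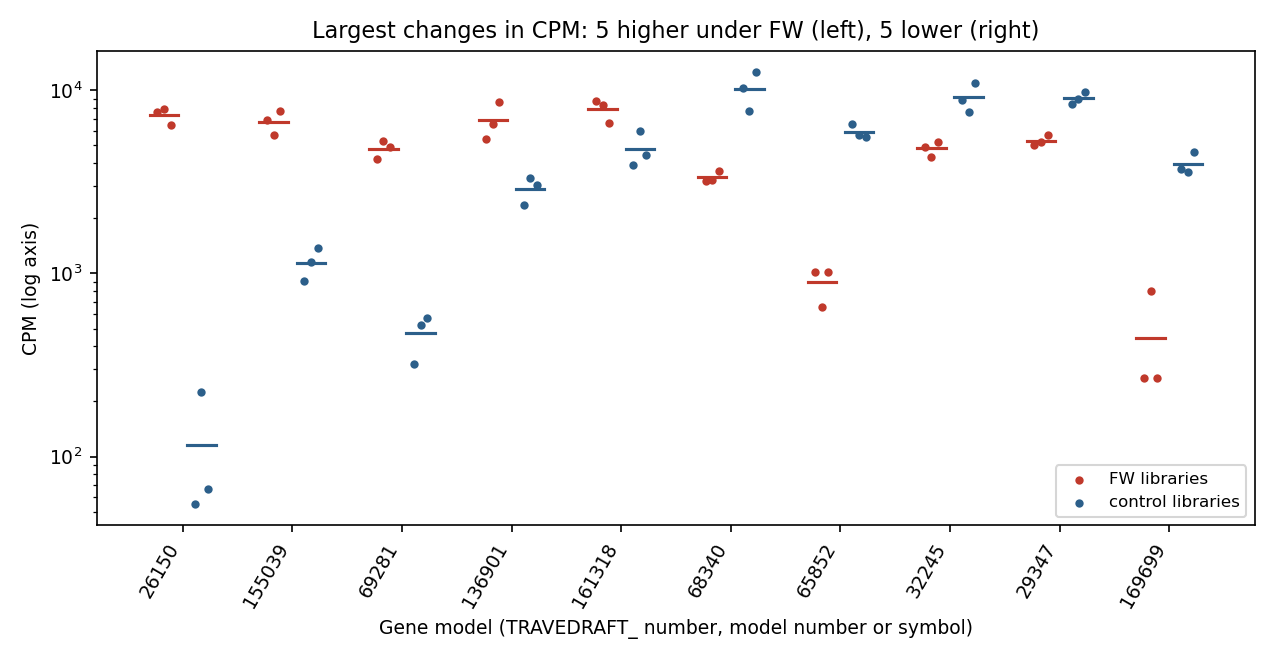
Points are single libraries and bars are group means (CPM, log axis) for the 5 called genes that gained and the 5 that lost the most reads, FW in red and control in blue. The gains run from 3117 to 7213 CPM in the group means, and the losses, FW minus control, from -3523 to -6811 CPM.

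Of the 5 most abundant genes of the control pellets per length, TRAVEDRAFT_161318 alone was called. Over all tested genes 45.8% were called, and 5 genes are too few to compare with that share. TRAVEDRAFT_163607 (scaffold 3, 2370249 to 2370830), had 15253 CPM per kb under FW and 14490, the most of all genes, in control (log2 fold change 0.07, SE 0.21, adjusted p = 0.791). For TRAVEDRAFT_116268 (scaffold 3, 3354435 to 3354851) it was -0.62 (SE 0.29, adjusted p = 0.0957), with 3105, 2532 and 5186 CPM under FW and 5193, 6650 and 4784 CPM in control. TRAVEDRAFT_41381 (scaffold 1, 819515 to 819848) had 0.51 (SE 0.25, adjusted p = 0.115) and TRAVEDRAFT_30062 (scaffold 8, 1154040 to 1155914) had -0.45 (SE 0.18, adjusted p = 0.0622). Without FW replicate 3 the falls of TRAVEDRAFT_116268 (-0.97, adjusted p = 0.0137) and TRAVEDRAFT_30062 (-0.67, adjusted p = 0.00797) passed the threshold, the second also without control replicate 1 (-0.56, adjusted p = 0.0361).

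Genes with reads in FW or in control but not in both were few and low. No reads in control but more than 3 counts under FW were found in 34 of the 14296 gene models, 3 of them with 20 or more. The opposite held for 19 models, 1 of them with 20 or more. TRAVEDRAFT_22244 (scaffold 9, 1159518 to 1160280) had 33 counts under FW, at 0.678, 1.02 and 0.229 CPM, and none in control. Set against a floor of 3 counts over the control group (0.0597 CPM), it was at least 10.7-fold higher. Its reads were not particular to FW, as it averaged 3.88 CPM under AB and 0.12 CPM under SD. TRAVEDRAFT_135547 (scaffold 14, 199846 to 200300) had no counts under FW and 26 in control, at least 8.94-fold lower against a floor of 0.0579 CPM. These genes were named after their counts were seen.

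The share of called genes was higher among genes with more reads. Tested genes were split into 5 classes of equal size by their mean CPM over the 12 libraries of the batch. In the lowest class, under 3.02 CPM, 14.2% were called higher and 12.7% lower. In the middle class, 10.8 to 31.7 CPM, these were 22.6% and 28.9%, and in the highest, from 89.9 CPM, 28.9% and 26.3%. Called rises of at least 2-fold made up 12% of the highest class and called falls of that size 6.78%, against 12.3% and 9.87% of the lowest.

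Gene structure went with small differences. Of 588 tested models with 1 exon, 20.4% rose and 14.5% fell, with a median log2 fold change of 0.12. Of 2760 models with 3 to 4 exons, 20.5% rose and 24.8% fell (median -0.07). The median level of the models with 1 exon was 3.63 CPM, against 16.8 CPM for those with 3 to 4, and the part of depth in these shares was not tested. Among the shortest of 5 length classes (at most 782 bases) 16.4% rose and 23.2% fell, and among the longest (2092 bases or more) 23.8% rose and 25.2% fell.

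Calls were spread over the genome. Over the 17 scaffolds with at least 100 tested genes, 18.3% to 27.8% of genes rose and 18% to 29% fell. Scaffold 1 held the highest share of falls, with 432 of 1492 genes lower and 283 higher (19%). Scaffold 9 held the highest share of rises, with 178 of 641 genes higher and 139 lower (21.7%).

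Neighbouring genes tended to move the same way. Among 2396 pairs of adjacent tested models in which both were called, 1447 moved in the same direction (60.4%). For models 10 places apart it was 1123 of 2229 pairs (50.4%). Divergent pairs, whose starts face each other, shared a direction in 65.1% of cases (424 of 651), pairs on the same strand in 60.8% (695 of 1143) and convergent pairs in 54.5% (328 of 602). Pairs of genes are not independent replicates and these shares are given as a description. Whether the counting used strand is not given in the sources used here, and 280 models overlap another, 158 of them one on the opposite strand.

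Runs of at least 4 adjacent tested models, all called in 1 direction and at least 2-fold, occurred 13 times, 9 of them higher and 4 lower. The longest had 5 models. On scaffold 13 (407648 to 418414) the 5 models from TRAVEDRAFT_53034 to TRAVEDRAFT_61044 rose, with log2 fold changes of 1.03 to 2.19 and a median of 1.93. TRAVEDRAFT_53037, the most expressed by reads under FW, averaged 40.2 ± 12.3 CPM under FW and 10.6 ± 5.15 CPM in control (n = 3 each, log2 fold change 1.93, SE 0.54, adjusted p = 0.0109). In control TRAVEDRAFT_74969 was higher, at 12.5 CPM. TRAVEDRAFT_61044, at the end of the run, averaged 10.7 ± 4.97 and 2.35 ± 0.844 CPM (2.19, SE 0.38, adjusted p = 4.68e-04). TRAVEDRAFT_53034, at the other end, was scarce, at 4.51 ± 0.289 and 1.09 ± 0.129 CPM. A filter at a mean of 10 CPM leaves these end genes and TRAVEDRAFT_24074 untested.

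A run of 5 rises on scaffold 4 (3097422 to 3111022) had a median log2 fold change of 1.5. TRAVEDRAFT_166188 averaged 259 ± 74.2 CPM under FW and 82.4 ± 18.9 CPM in control (log2 fold change 1.65, SE 0.24, adjusted p = 1.15e-04), and TRAVEDRAFT_118998 79.3 ± 19.8 and 24.3 ± 10.2 CPM (1.71, SE 0.29, adjusted p = 4.12e-04). The run's length rests on a pair of scarce genes at its start. TRAVEDRAFT_46272 averaged 2.63 ± 1.5 CPM under FW and 1.29 ± 0.317 CPM in control, and TRAVEDRAFT_77867 averaged 1.73 ± 0.222 and 0.827 ± 0.5 CPM. Their adjusted p-values of 0.0453 and 0.0419 became 0.274 and 0.101 without FW replicate 1. Without control replicate 1 the log2 fold change of TRAVEDRAFT_77867 was 1.66, against 1.04 with all libraries. Just outside the run, TRAVEDRAFT_71225 (3092455 to 3093222) fell to 3.81 ± 1.86 CPM under FW, against 52.9 ± 23.9 CPM in control (-3.79, SE 0.50, adjusted p = 5.98e-05).

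On scaffold 3 (1266641 to 1275196) 5 adjacent models fell, with log2 fold changes of -2.49 to -1.26. TRAVEDRAFT_44362 averaged 13 ± 5.14 CPM under FW and 73.2 ± 25.4 CPM in control (-2.49, SE 0.32, adjusted p = 5.05e-05), and TRAVEDRAFT_69874 3.87 ± 0.886 and 17.5 ± 2.33 CPM (-2.17, SE 0.21, adjusted p = 5.09e-06). The call of TRAVEDRAFT_69872, at the edge, was lost without FW replicate 2 (adjusted p = 0.0688) or control replicate 3 (adjusted p = 0.0734). The next 2 models beyond TRAVEDRAFT_69874 fell less, with log2 fold changes of -0.75 for TRAVEDRAFT_162853 and -1.15 for TRAVEDRAFT_27121.

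The most even run lay on scaffold 7 (2237974 to 2247336), where 4 models fell by near-equal amounts. TRAVEDRAFT_126499 averaged 8.19 ± 2.66 CPM under FW and 57.1 ± 10.3 CPM in control (log2 fold change -2.80, SE 0.25, adjusted p = 2.55e-06). TRAVEDRAFT_126095 averaged 14.3 ± 3.46 and 95.3 ± 14 CPM (-2.74, SE 0.20, adjusted p = 5.53e-07). TRAVEDRAFT_29790 had 2.22 ± 0.827 and 15.1 ± 5.65 CPM (-2.76, SE 0.37, adjusted p = 6.28e-05), and TRAVEDRAFT_169894 71.9 ± 27.8 and 342 ± 22.6 CPM (-2.25, SE 0.26, adjusted p = 2.03e-05). A further run of 4 falls began 1 model away, so that 8 of the 9 models over 26.4 kb (2237974 to 2264383) fell. The exception, TRAVEDRAFT_38225, averaged 82 ± 12.3 CPM under FW and 104 ± 16.2 CPM in control (-0.34, SE 0.16, adjusted p = 0.0994). Over all tested genes 23.4% fell. The region joins runs that were chosen for their falls, so its count of falls follows from that choice.

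**Figure D5:**
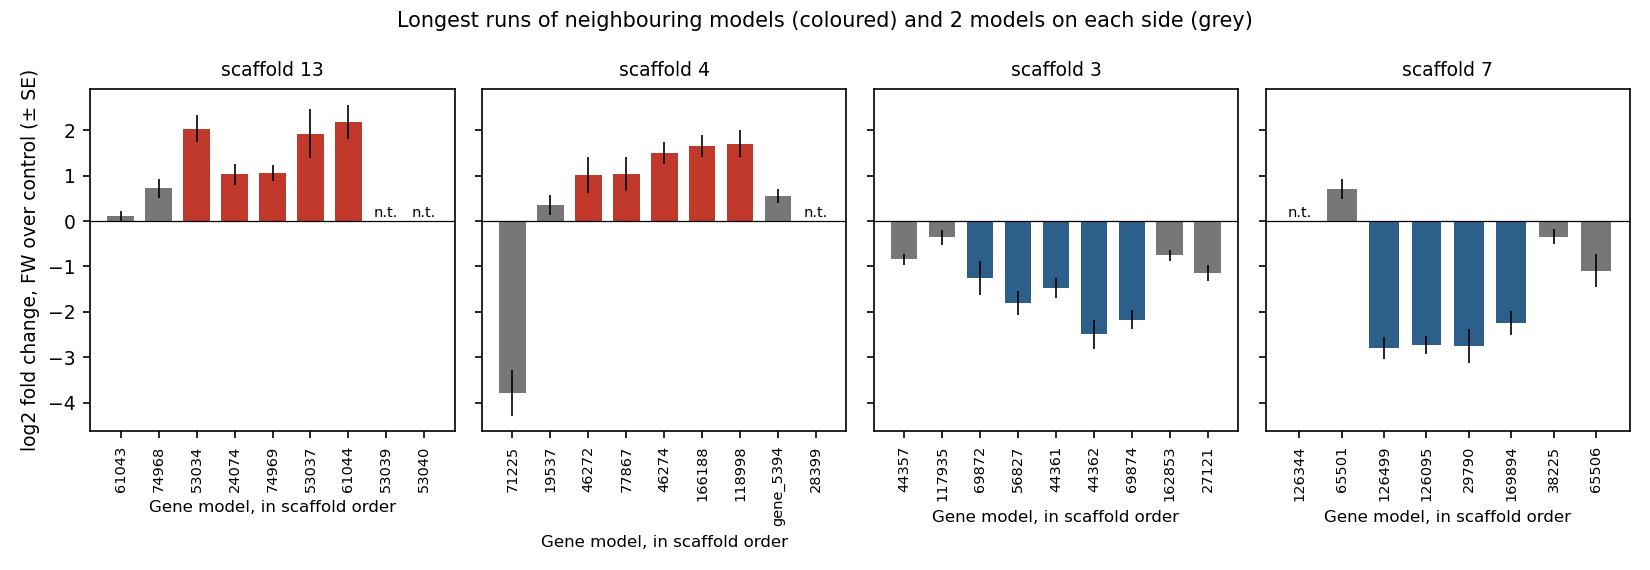
Bars are log2 fold changes of FW over control with their SE for the 2 longest runs of rising models (red) and of falling models (blue), with 2 models on each side in grey, in scaffold order. Models marked n.t. had too few reads to be tested. The 4 blue bars on scaffold 7 run from -2.80 to -2.25.

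The regions that follow were picked after their values were seen. On scaffold 4 (3200249 to 3209612) 4 adjacent models on the same strand rose with a median log2 fold change of 3.30. Among them, TRAVEDRAFT_46310 averaged 93.8 ± 31.4 CPM under FW and 2.81 ± 2.13 CPM in control (5.08, SE 0.42, adjusted p = 1.73e-06), and TRAVEDRAFT_28406 455 ± 231 and 34.7 ± 8.3 CPM (3.72, SE 0.36, adjusted p = 5.10e-06). Both were also higher under FW than under SD, by 2.32 (adjusted p = 6.65e-04) and 1.62 (adjusted p = 0.0036), and than under AB, by 2.27 (adjusted p = 2.25e-04) and 3.44 (adjusted p = 5.59e-06). A run of 4 on scaffold 9 (600685 to 621587) was led by TRAVEDRAFT_50114, a model that spans 600685 to 611004, at 43.8 ± 11.9 CPM under FW and 6.07 ± 2.07 CPM in control (2.85, SE 0.26, adjusted p = 3.72e-06). A run of 4 on scaffold 6 (348936 to 366988) ended in TRAVEDRAFT_124832, at 15 ± 2.5 CPM under FW and 2.1 ± 0.385 CPM in control (2.83, SE 0.25, adjusted p = 2.37e-06), with 4 models inside it that had too few reads to be tested. On scaffold 7 (48877 to 54587) 4 models with log2 fold changes of 1.05 to 2.68 rose directly beside TRAVEDRAFT_29347, the abundant gene described above that fell.

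On scaffold 8, 46 kb (2141334 to 2187352) held 24 models, of which 10 were tested and 8 rose. Over all tested genes 22.4% rose, and this region too was picked after its values were seen. Most were scarce, such as TRAVEDRAFT_49709 at 1.23 ± 0.185 CPM under FW and 0.128 ± 0.133 CPM in control (3.28, SE 0.69, adjusted p = 0.00181). TRAVEDRAFT_81808 had 0.384 CPM under FW and no counts in control. TRAVEDRAFT_49725 had 0.0196 CPM in control, 0.0514 under SD, 0.23 under FW and 0.775 under AB. Models so scarce in control passed the low-count filter only through reads in an exposed group. The share of rises among the tested models here was thus in part set by the filter. Apart from TRAVEDRAFT_59737 and TRAVEDRAFT_30230, every rising gene here had a higher mean under AB than under FW. For TRAVEDRAFT_73252 these means were 2.2 and 0.555 CPM. TRAVEDRAFT_30230 was the most expressed by reads, at 112 ± 26.5 CPM under FW and 39.1 ± 11 CPM in control (1.52, SE 0.27, adjusted p = 5.65e-04).

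The large rise of TRAVEDRAFT_173629 and the large fall of TRAVEDRAFT_23498, both described above, lie 15.6 kb apart on scaffold 11. Of the 6 models between them, all tested, 3 fell and none rose, against 23.4% lower and 22.4% higher over all tested genes. The region was picked for the genes at its ends.

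By number the genes on the heme peroxidase and multicopper oxidase lists formed a small part of the response. These lists hold only 29 and 8 tested genes. Of 29 tested heme peroxidase genes 14 rose and 3 fell, with a median log2 fold change of 0.51. Over all tested genes 22.4% rose and 23.4% fell, with a median of -0.01. Rises, MnP13 described above among them, thus made up a larger share of the heme peroxidases than of all tested genes. No set test was run. DyP1, a dye-decolorising peroxidase, had 201, 157 and 263 CPM under FW and 332, 287 and 312 CPM in control (-0.58, SE 0.20, adjusted p = 0.0312), a call that was lost without FW replicate 1 or 2 or control replicate 1 or 3 (adjusted p 0.0672 to 0.167). Of the 8 laccase and multicopper oxidase genes, copper enzymes of which laccases oxidise phenols, 1 fell and none rose (median -0.46). That gene, TvLac7, had 90.8, 61.5 and 75 CPM under FW and 206, 193 and 371 CPM in control (-1.76, SE 0.31, adjusted p = 4.94e-04).

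Among the other genes with a symbol, LDO1 (scaffold 1, 623274 to 628182) had 3030, 2163 and 3052 CPM under FW and 5187, 3807 and 6026 CPM in control (log2 fold change -0.87, SE 0.20, adjusted p = 0.00392). LDO2 (scaffold 6, 458124 to 462878) had 652, 465 and 527 CPM under FW and 527, 668 and 420 CPM in control, with overlapping groups and no call (0.03, SE 0.17, adjusted p = 0.911). CCP1 (scaffold 2, 2690043 to 2691900), cytochrome c peroxidase, a mitochondrial enzyme that removes hydrogen peroxide, had 150, 108 and 186 CPM under FW and 186, 111 and 207 CPM in control (-0.19, SE 0.26, adjusted p = 0.583). All 3 genes were higher under FW than under SD, LDO1 by 0.59 (adjusted p = 0.0488), LDO2 by 0.58 (adjusted p = 0.0235) and CCP1 by 0.94 (adjusted p = 0.0181). LDO1 and LDO2 averaged 229 ± 14.7 and 18.9 ± 1.02 CPM under AB and were higher under FW by 3.59 (adjusted p = 6.61e-08) and 4.86 (adjusted p = 1.67e-09). The difference of CCP1 from AB was not called (-0.42, SE 0.26, adjusted p = 0.205).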

How the data were processed

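Barcoded polyA libraries were prepared from 200 ng RNA each, per the labels' protocols. The deposited values are raw read counts per gene model, not normalised, and HISAT2 and featureCounts are named, per the submitters' processing notes. The sources used here do not give versions, genome build, strand setting or multi-mapping rule. Thus values of near-identical gene copies are uncertain. Models were named by exact start and end among RefSeq genes (Trametes versicolor assembly v1.0). Of 14296 models 14214 matched and 42 carry a symbol. Planned lists and searches that need product names, proteins or promoters were not run, and no sequence is printed. The heme peroxidase and laccase lists were formed from symbols.

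Counts of the 12 libraries of the main batch were fitted in 1 model with edgeR 4.0.16 (R 4.3.3), with TMM scaling, the default filter on low counts and a two-sided quasi-likelihood F test. The biological coefficient of variation was 0.188 with 8 residual degrees of freedom. The fit was tested on simulated data. Levels are CPM on scaled library sizes, and each SE is the absolute log2 fold change divided by the square root of F, so approximate. Total counts were 16923906 to 18770043 under FW and 15459249 to 18235907 in control. Floors cover counting error only, and floors and bounds use 3 counts.

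Genes named by fold or by CPM difference (the 8 and the 5 largest each way), and as the top rise and fall of each list, were called, averaged at least 10 CPM over the 6 libraries and did not overlap between the groups. Members of the 2 longest runs of neighbours each way, the other genes with a symbol and the 5 most abundant control genes, ranked per length, were named without those conditions. Members and lists were chosen with earlier results of these data known. Alternatives were DESeq2 1.42.0, size factors by RLE, low-count filtering at 10 CPM or not at all, a fit of FW and control without the other groups, a replicate block, and each library left out in turn.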

Additional observations from a re-analysis of the deposited data

How the results depend on the processing

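The counts of genes higher (2432) and lower (2531) under FW stayed within 1.5 times under every alternative run. Leaving out 1 library gave 2039 to 2368 higher, 1965 to 2501 lower and 2044 to 2381 at least 2-fold. The number called with at least a 2-fold change was 1300 with a filter at a mean of 10 CPM, which tests 6581 genes in place of 10838, against 2220. RLE size factors and DESeq2 kept 98.9% and 99.1% of the calls in the same direction, the FW and control libraries alone 85.4%, the filter at 10 CPM 68.5%, and leaving out 1 library 80.3% (control replicate 1) to 89.4% (control replicate 2). Of 629 values of the 53 named genes under alternatives, 18 lost the call and 3 gained it. No called gene changed sign, whereas CCP1, LDO2 and TRAVEDRAFT_163607, not called and close to 0, did on leaving out 1 library (to 0.05, -0.08 and -0.14 without FW replicate 2, 1 and 3, among others). The losses were those of TRAVEDRAFT_46272, TRAVEDRAFT_77867, TRAVEDRAFT_69872 and DyP1. Some scarce run members have no value with the filter at 10 CPM, as it leaves them untested. They are TRAVEDRAFT_53034, TRAVEDRAFT_24074, TRAVEDRAFT_61044, TRAVEDRAFT_46272, TRAVEDRAFT_77867, TRAVEDRAFT_69872 and TRAVEDRAFT_29790. With a replicate block 4945 genes were called, 2435 higher, 2510 lower and 2228 at least 2-fold, and TRAVEDRAFT_46272 (adjusted p = 0.0678) and TRAVEDRAFT_77867 (adjusted p = 0.0543) lost their calls. The main fit did not take the replicate numbers as pairs. Deviations from the group means correlated at 0.0705, 0.281 and 0.246 for same-numbered FW and control libraries. For libraries of different number the values were -0.261 to 0.0715, the highest for FW replicate 3 and control replicate 1. Whether same-numbered libraries share a source is not stated and was not tested. In the lowest class, up to 3.02 CPM, 14.2% were called higher and 12.7% lower, and the part of depth in this was not tested. The cause of lost calls was not tested.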
